A study of Mus musculus with 3 samples.

Results

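Solute carriers are membrane proteins that move sugars, amino acids, metals, ions, vitamins and drugs into, out of and within cells. Genes whose symbol begins with Slc and a digit, or with Slco, were taken from the 3 comparison tables that the authors deposited. The members were selected on measured values, because a table lists a probe set only where 2 arrays were at least 2-fold apart in the authors' deposited ratio. This gave 53 genes with 74 probe sets, of the 2944 genes and 4310 probe sets that the tables name or list. The label holds for 51 of the 53 genes. The other two, Slc9a3r1 and Slc9a3r2, encode PDZ scaffold proteins that bind transporters and are not transporters themselves.

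RNA was measured on 1 Affymetrix array for each of 3 mice aged 16 weeks. The depleted lung came from a mouse of the genotype KA/KA-Lori-Ikkα that had been treated to deplete macrophages; its lung was inflamed in part and showed no tumour. The tumour lung came from a mouse of the same genotype and held squamous cell carcinoma (SCC) mixed with neighbouring tissue. The wild type lung was normal lung. Both mutant lungs thus carry the same alleles, each group is 1 animal, and the sources used here do not give the depleting agent. No value has a replicate error, no test was made, and each difference describes these arrays only.

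In lung, glucose carriers feed glycolysis, arginine carriers supply arginase and nitric oxide synthase, and iron and zinc carriers decide what microbes and macrophages can draw on. Chloride and bicarbonate exchangers set the pH and volume of airway liquid. The endothelium of the lung takes up noradrenaline, serotonin and prostaglandins from the blood through carriers of its own.

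Promoters of 4 members are shown first, as a pair of glucose carriers (Slc2a1, Slc5a1), the member with the largest fold (Slc26a4), and a member that was lowest in tumour lung (Slco2a1). They are RefSeq sequences of GRCm38.p6, read 5′ to 3′ on the strand of the gene, from 250 bases before to 50 after the start. Slc2a1 is at chr4:119108495-119108794 on the plus strand, Slc5a1 at chr5:33103969-33104268 on the plus strand, Slc26a4 at chr12:31559935-31560234 on the minus strand, and Slco2a1 at chr9:103008237-103008536 on the plus strand. Capitals mark the core of the hypoxia response element, ACGTG on either strand.
Slc2a1: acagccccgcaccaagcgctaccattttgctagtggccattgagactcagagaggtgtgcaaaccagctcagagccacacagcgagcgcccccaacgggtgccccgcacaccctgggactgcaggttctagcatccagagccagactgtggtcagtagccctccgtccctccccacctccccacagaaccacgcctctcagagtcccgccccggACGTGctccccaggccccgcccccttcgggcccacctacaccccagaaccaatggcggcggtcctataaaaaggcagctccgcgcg
Slc5a1: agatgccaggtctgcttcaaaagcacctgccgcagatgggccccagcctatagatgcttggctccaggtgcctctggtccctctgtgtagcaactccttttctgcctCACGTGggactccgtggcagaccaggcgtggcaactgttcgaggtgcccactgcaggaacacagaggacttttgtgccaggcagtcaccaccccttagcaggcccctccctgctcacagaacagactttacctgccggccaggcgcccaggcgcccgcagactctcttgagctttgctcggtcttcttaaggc
Slc26a4: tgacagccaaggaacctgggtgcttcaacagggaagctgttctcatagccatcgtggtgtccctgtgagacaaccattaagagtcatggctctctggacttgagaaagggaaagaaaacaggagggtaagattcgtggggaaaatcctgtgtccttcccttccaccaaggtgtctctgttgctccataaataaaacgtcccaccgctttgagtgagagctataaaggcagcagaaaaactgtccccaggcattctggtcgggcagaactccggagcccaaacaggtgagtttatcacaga
Slco2a1: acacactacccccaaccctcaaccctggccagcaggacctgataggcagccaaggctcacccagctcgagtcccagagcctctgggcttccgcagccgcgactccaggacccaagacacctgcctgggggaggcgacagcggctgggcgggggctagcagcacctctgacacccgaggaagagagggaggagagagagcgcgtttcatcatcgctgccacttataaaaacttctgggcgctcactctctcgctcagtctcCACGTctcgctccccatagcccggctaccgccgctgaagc

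The core lay 36 bases before the start in Slc2a1 and 142 bases before it in Slc5a1, where both strands read it in overlap. In Slco2a1 it lay 10 bases after the start, and the window of Slc26a4 held none. Of the 32851 promoters in the table, 19.6% held the core. The table held 50 promoters of 39 of the 53 members, and 9 of these 50, each of a different gene, held it. Some genes have several promoters (3 for Slc27a1 and 2 for Slc39a11), so counts of genes cannot be set against the share of all promoters. It was present in 4 of the 10 genes with a promoter among members brightest in tumour lung by at least 2-fold (Slc27a1, Slc2a1, Slc39a11 and Slc5a1), and in 1 of 7 among those dimmest there. These sets were taken from the measured values, and no difference is read from their counts. The AP-1 motif (TGANTCA) was in 3 of the 50 promoters (7.81% of all promoters) and the antioxidant core (TGACNNNGC) in 7 (12.4%), both strands searched. A match is a description of letters and no evidence of binding.

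The value of a gene is the deposited intensity of its brightest listed probe set, and differences are log2 of 1 array over another. A member entered a comparison if the brighter array reached that array's median intensity (127 in depleted, 124 in tumour and 128 in wild type lung). Intensities below an array's 25th percentile (35.0, 35.5 and 34.8) were raised to it before a fold was computed, and such folds are given as "at least". In whole lung, fewer cells of a type and less RNA per cell cannot be told apart. Summed marker intensities in depleted, tumour and wild type lung were 535, 67095 and 415 for 10 of 11 squamous genes and 19247, 75532 and 4199 for 8 of 8 macrophage genes. They were 31762, 6635 and 42619 for 7 of 7 endothelial genes, 1128, 106 and 4344 for 5 of 10 adipocyte genes and 9787, 603 and 51526 for 9 of 11 cardiac and skeletal muscle genes. Their part in the results below was not tested. The mice also differed in sex-linked RNA. In depleted, tumour and wild type lung Xist read 133, 15608 and 188, and the Y-linked gene Eif2s3y read 1467, 11.4 and 1341. The tumour lung thus read as female and the other lungs as male. Sex cannot be told apart from group in the comparisons that use tumour lung. On the X chromosome lie 3 members (Slc38a5, Slc6a14 and Slc6a8).

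Set against tumour lung, depleted lung had 46 members bright enough to compare. A difference of 2-fold or more was reached upwards by 12 of them (26.1%) and downwards by 17 (37.0%), and the median log2 difference was -0.41. Among the 2746 named genes that could be compared, the shares were 29.5% upwards and 27.5% downwards and the median was 0.26. In the comparison of tumour with wild type lung, 25 of 52 members (48.1%) reached 2-fold upwards and 21 (40.4%) downwards, and the median was 0.67. Among 2813 named genes the shares were 37.6% and 38.2%, and the median was -0.11. In the comparison of depleted with wild type lung, 15 of 50 members reached 2-fold upwards and 12 downwards, and the median was 0.12. Among 2622 named genes the shares were 24.6% and 21.1%, and the median was -0.07. The same tables named both the members and the other genes, so the counts follow from the selection and nothing is read from them.

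The scale of the wild type array was not settled. The 18 hybridization control probe sets were brighter than in wild type lung by a median log2 of 1.18 in depleted lung and 1.00 in tumour lung, and by 0.154 in depleted against tumour lung. With the control medians made equal, the median of all probe sets was -0.13 for depleted against tumour, -1.15 for tumour against wild type and -1.29 for depleted against wild type lung. Then 14 members (26.9%) were higher and 24 (46.2%) lower in tumour than in wild type lung, where 15.3% and 52.5% of named genes were. In depleted against wild type lung 3 members (6.12%) were higher and 28 (57.1%) lower, where 6.1% and 60.2% of named genes were. Differences between depleted and tumour lung changed little, with 10 members (21.7%) higher and 19 (41.3%) lower, and 24.7% and 30.7% of named genes.

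**Figure D1:**
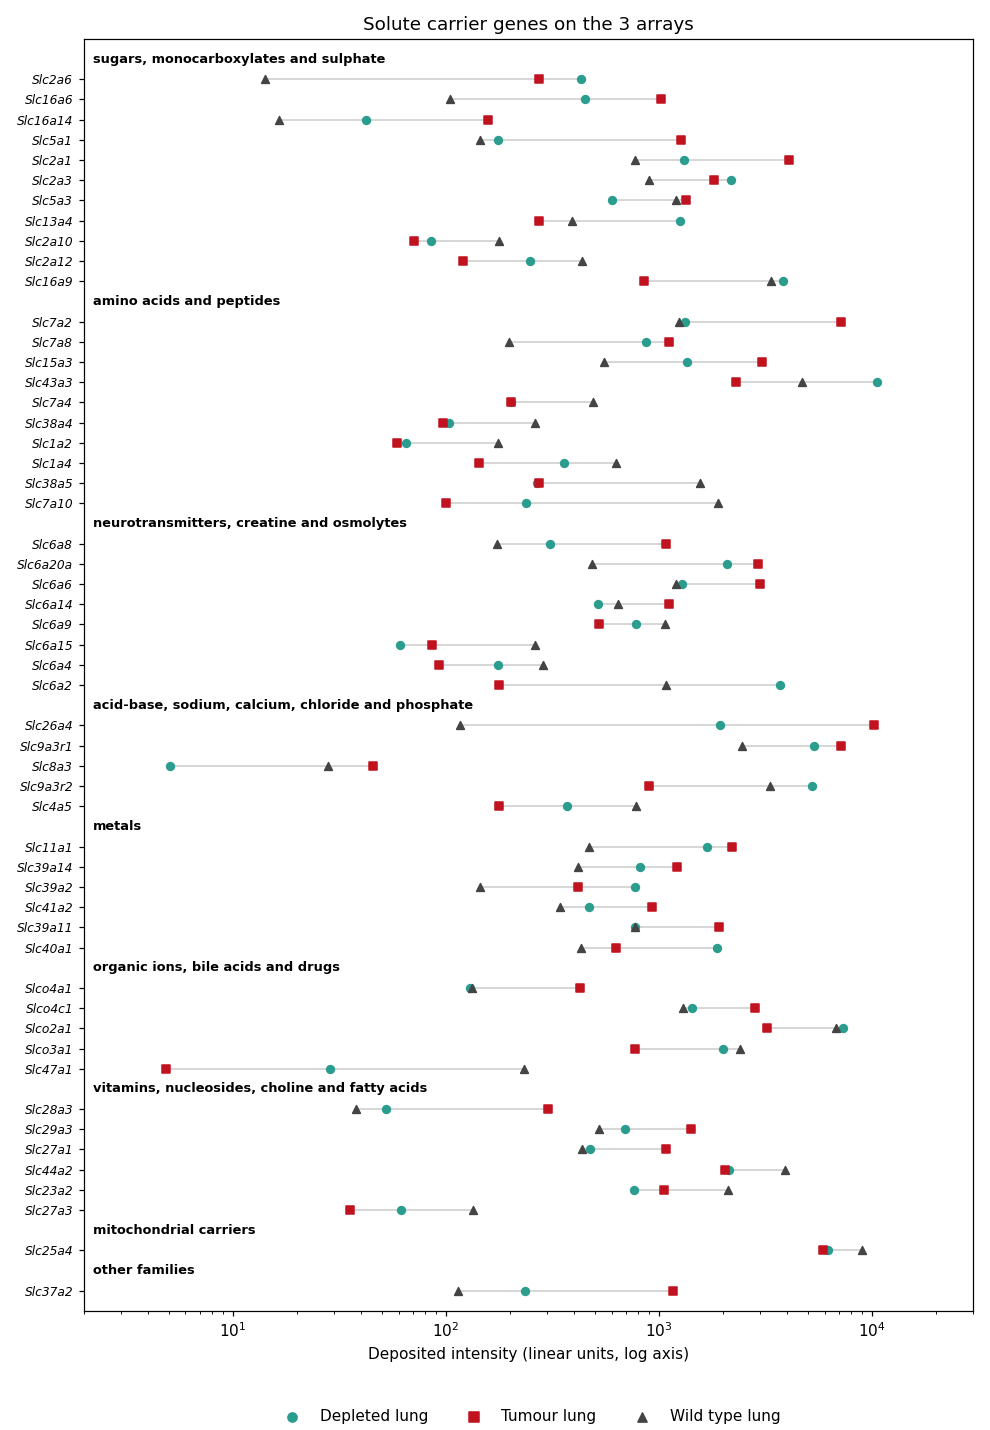
Deposited intensity (linear units on a log axis) of the 53 solute carrier genes, 1 point per array, grouped by what the families carry and sorted by the difference of tumour and wild type lung. Slc26a4 spans the arrays from 117 in wild type to 10183 in tumour lung, and Slc8a3 is dim on all 3 arrays.

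By position among the arrays, 15 of 52 members (28.8%) were highest in tumour lung by at least 2-fold over both other arrays, where 19.4% of named genes were. A further 11 members (21.2%) were lowest there by at least 2-fold, against 21.6% of named genes. Depleted lung was highest by that margin for 4 members (7.69%, against 6.10%) and lowest for 1, Slc5a3 (1.92%, against 6.45%). Wild type lung was highest for 11 members (21.2%, against 11.9%) and lowest for 12 (23.1%, against 16.8%). These positions depended on the scale. With equal control medians wild type lung was highest by 2-fold for 20 members (38.5%, against 42.4%) and lowest for 2 (3.85%, against 3.87%), which were Slc26a4 and Slc2a6. Tumour lung was then highest for 10 members (19.2%, against 11.2%), and depleted lung for none (1.64% of named genes) and lowest for 8 (15.4%, against 18.8%).

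Among carriers of sugars, monocarboxylates and sulphate, the glucose carriers differed from each other across the 3 lungs. Slc2a1 encodes GLUT1, the carrier of basal glucose uptake. Its intensity was 1307 in depleted, 4066 in tumour and 770 in wild type lung. It was thus 3.11-fold lower in depleted than in tumour lung and 5.28-fold higher in tumour than in wild type lung. Its 3 probe sets gave log2 differences of -1.88 to -1.58 for depleted against tumour lung and 1.95 to 2.40 for tumour against wild type lung. With equal control medians its log2 difference of tumour and wild type lung was 1.29 in place of 2.40. Slc5a1, the sodium-coupled glucose carrier SGLT1, read 176 in depleted, 1267 in tumour and 145 in wild type lung. With equal control medians its log2 difference of tumour and wild type lung was 2.01 in place of 3.13. Slc5a1 stood out in tumour lung, 7.18-fold lower in depleted lung and 8.75-fold above wild type on the deposited scale.

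Slc2a3 and Slc2a6 did not follow that order. Slc2a3, the high-affinity glucose carrier GLUT3 of leukocytes and neurons, read 2189 in depleted, 1807 in tumour and 902 in wild type lung, and was highest in depleted lung. Its log2 difference of 1.00 between tumour and wild type lung became -0.11 with equal control medians. Slc2a6, the lysosomal carrier GLUT6, read 431, 275 and 14.2 in depleted, tumour and wild type lung. It was at least 12.4-fold higher in depleted than in wild type lung and at least 7.90-fold higher in tumour than in wild type lung; in the authors' deposited table these are 5.51-fold and 2.48-fold. Slc2a10 read 85.2 in depleted, 70.7 in tumour and 177 in wild type lung, and Slc2a12 read 249, 120 and 435. Both of these less studied sugar carriers were highest in wild type lung.

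Genes of glycolysis from a list of 18 were set beside the glucose carriers. Of these, 8 were named, and all 8 were at least 2-fold lower in depleted than in tumour lung and at least 2-fold higher in tumour than in wild type lung. Of named genes 27.5% and 37.6% were. A gene was named only where 2 arrays were at least 2-fold apart in the authors' deposited ratio. Genes of the list without such a difference have no value here. Hk2, which traps glucose as glucose 6-phosphate, read 935 in depleted, 2856 in tumour and 811 in wild type lung. Ldha, which makes lactate, read 6580, 14591 and 5056 in the same order. In depleted lung 7 of the 8 were within 2-fold of wild type. The exception, Hk3, a hexokinase of myeloid cells, read 507 in depleted and 216 in wild type lung. With equal control medians 4 of the 8 were at least 2-fold lower in depleted than in wild type lung, as were 60.2% of named genes. None was above wild type, and the median was -0.98 in place of 0.29, with Hk3 at -0.04. Under the same scaling the list's median difference of tumour and wild type lung was 0.54 in place of 1.66. Then 1 gene was at least 2-fold higher, against 15.3% of named genes, and Pkm was no longer above wild type.

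**Figure D2:**
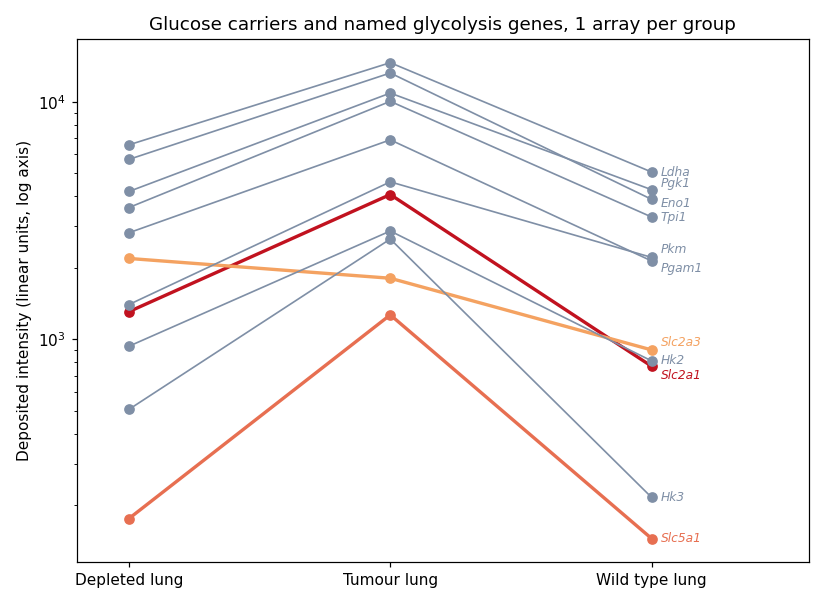
Deposited intensity (log axis) of 3 glucose carriers (thick lines) and 8 named glycolysis genes (thin lines) on the depleted, tumour and wild type arrays, with lines joining the values of a gene. All 8 glycolysis genes, Slc2a1 and Slc5a1 peak in tumour lung (with equal control medians Pkm is brightest in wild type lung), and Slc2a3 is highest in depleted lung at 2189.

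The monocarboxylate family was split. Slc16a6, which exports ketone bodies from the liver in zebrafish, read 452 in depleted, 1022 in tumour and 105 in wild type lung. Slc16a14, whose cargo is not settled, read 42.3, 158 and 16.5, at least 4.54-fold higher in tumour than in wild type lung (2.98-fold in the authors' deposited table). Both were brightest in tumour lung. Slc16a9, linked to carnitine efflux in humans, read 3837 in depleted, 853 in tumour and 3377 in wild type lung. It was 4.50-fold higher in depleted than in tumour lung, and its 3 probe sets ranged from 0.80 to 2.17 on the log2 scale for that difference.

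Slc5a3, the sodium-coupled carrier of the osmolyte myo-inositol, read 601 in depleted, 1342 in tumour and 1203 in wild type lung. It was the member dimmest in depleted lung by at least 2-fold below both other arrays. Slc13a4, a sodium-coupled sulphate carrier, was brightest there, with 1261 in depleted, 274 in tumour and 393 in wild type lung. Its 4.60-fold difference of depleted over tumour lung is 2.06-fold in the authors' deposited table.

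Among carriers of amino acids and peptides, 7 of 10 were at least 2-fold lower in tumour than in wild type lung and 3 higher. Of named genes 38.2% were lower and 37.6% higher. The carrier counts were the same with equal control medians, where 52.5% of named genes were lower and 15.3% higher. The 3 that were higher were Slc7a2, Slc7a8 and Slc15a3. Slc7a2 encodes CAT2, a carrier of arginine and other cationic amino acids that is used by activated macrophages. It read 1327 in depleted, 7166 in tumour and 1238 in wild type lung, 5.40-fold lower in depleted than in tumour lung. Its 3 probe sets ranged from -3.47 to -2.43 on the log2 scale for that difference, with -3.47 from the median intensity over probe sets. They ranged from 2.38 to 2.93 for tumour against wild type lung. With equal control medians the log2 difference of Slc7a2 from wild type was 1.42 in tumour and -1.17 in depleted lung.

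Of 6 genes of arginine metabolism, 2 were named. Arg1, the arginase of alternatively activated macrophages, read 255 in depleted, 19256 in tumour and 111 in wild type lung. Arg2, the mitochondrial arginase, read 1622, 1431 and 195 in that order. Arg1 was thus 75.6-fold lower in depleted than in tumour lung, while Arg2 was within 2-fold between them.

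The other two amino acid and peptide carriers above wild type in tumour lung differed in depleted lung. Slc7a8, the large neutral amino acid carrier LAT2, read 870 in depleted, 1117 in tumour and 199 in wild type lung. Slc15a3, a lysosomal carrier of histidine and peptides found in immune cells, read 1349, 3065 and 552. Slc7a8 was within 2-fold between the mutant lungs, and Slc15a3 was 2.27-fold lower in depleted than in tumour lung. With equal control medians the differences of depleted and wild type lung were 0.85 for Slc7a8 and 0.02 for Slc15a3 on the log2 scale. No member of this group was then at least 2-fold higher in depleted than in wild type lung and 7 of 10 were lower. Shares of named genes were 6.1% and 60.2%.

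Slc7a10 had the largest measured fold among members lower in tumour lung, leaving aside Slc47a1, whose fold is only a bound. It encodes Asc-1, a carrier of small neutral amino acids that also marks white adipocytes. It read 238 in depleted, 100 in tumour and 1905 in wild type lung, 8.0-fold lower in depleted and 19-fold lower in tumour than in wild type lung. Adipoq, a defining gene of adipocytes, read 141, 35.3 and 979 in depleted, tumour and wild type lung, and Cfd, which encodes adipsin, read 450, 9.58 and 2423. The 3 genes had the same order on the arrays, and how much fat each sample held was not tested.

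The remaining amino acid carriers were dimmer in both mutant lungs, with 1 exception. Slc38a5, the glutamine and glycine carrier SNAT5, read 267 in depleted, 274 in tumour and 1562 in wild type lung. Slc38a4 (SNAT4) read 104, 96.9 and 263, and Slc1a2, the glutamate carrier of glia, read 65.1, 58.9 and 175. Depleted and tumour lung lay close together for these 3 genes. Slc7a4, a relative of the arginine carriers without established transport activity, read 203 in depleted, 203 in tumour and 492 in wild type lung; its 2.42-fold lower value in depleted than in wild type lung is 1.61-fold in the authors' deposited table. Slc1a4, the alanine and serine carrier ASCT1, read 359, 143 and 631. Slc43a3 was the exception. It belongs to an amino acid carrier family by sequence, transports purine bases, and read 10550 in depleted, 2294 in tumour and 4702 in wild type lung. It was 4.60-fold higher in depleted than in tumour lung and 2.24-fold higher in depleted than in wild type lung, but the difference from wild type was -0.11 on the log2 scale with equal control medians.

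The Slc6 family couples uptake of neurotransmitters, creatine, taurine and amino acids to sodium and chloride. Slc6a2, the noradrenaline carrier, had the largest difference of any member between depleted and tumour lung. It read 3692 in depleted, 177 in tumour and 1086 in wild type lung, a 20.9-fold higher value in depleted than in tumour lung, where the authors' deposited table has 9.00-fold. Slc6a4, the serotonin carrier, read 175, 92.5 and 286. Both were dimmest in tumour lung, and Slc6a2 was higher in depleted than in wild type lung by 3.40-fold while Slc6a4 was lower, with a log2 difference of -0.71. These differences from wild type were 0.49 and -1.98 with equal control medians, so Slc6a2 was then within 2-fold.

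Endothelial markers had a partly similar order. The endothelial gene Cldn5, of tight junctions, read 6882 in depleted, 783 in tumour and 4510 in wild type lung. Tek, an angiopoietin receptor, read 6097, 979 and 6413. Of 7 endothelial genes 6 were at least 2-fold higher in depleted than in tumour lung, and all 7 were lower in tumour than in wild type lung. Of named genes 29.5% were higher in the first comparison and 38.2% lower in the second. Whether the share of endothelium accounts for Slc6a2 was not tested.

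Other Slc6 members were brightest in tumour lung, although with equal control medians Slc6a14 was brightest in wild type lung. Slc6a8, the creatine carrier, read 307 in depleted, 1086 in tumour and 174 in wild type lung, and its 6.25-fold higher value in tumour than in wild type lung is 3.99-fold in the authors' deposited table. Slc6a6, the taurine carrier, read 1289, 2973 and 1205. Slc6a14, an epithelial carrier of neutral and cationic amino acids, read 519, 1122 and 646. These 3 genes were at least 2-fold lower in depleted than in tumour lung.

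Slc6a20a, a carrier of proline, was high in both mutant lungs, with 2097 in depleted, 2906 in tumour and 485 in wild type lung. Slc6a9, the glycine carrier GlyT1, read 778, 524 and 1067. Slc6a15, a carrier of branched-chain amino acids and proline, read 60.9, 86.6 and 262. Slc6a9 and Slc6a15 were brightest in wild type lung. The 4.30-fold lower value of Slc6a15 in depleted than in wild type lung is 2.13-fold in the authors' deposited table.

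Slc26a4 had the largest fold of all members against wild type. It encodes pendrin, an apical exchanger of chloride, bicarbonate and iodide that airway epithelium makes in inflamed airways. It read 1939 in depleted, 10183 in tumour and 117 in wild type lung. It was 5.25-fold lower in depleted than in tumour lung, 87.3-fold higher in tumour than in wild type lung and 16.6-fold higher in depleted than in wild type lung. The authors' deposited table has 4.27-fold, 65.9-fold and 15.5-fold for these differences. With equal control medians the log2 differences from wild type were 5.33 in tumour and 2.78 in depleted lung. They were 6.45 and 4.05 without that scaling. A single listed probe set carries the gene, so no second measurement stands beside it.

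Other genes of acid and fluid transport did not share 1 direction. Of 15 such genes 9 were named. In tumour against wild type lung 2 were at least 2-fold higher and 5 lower, against 37.6% and 38.2% of named genes. With equal control medians 2 were higher and 6 lower, against 15.3% and 52.5% of named genes. Car12, a membrane carbonic anhydrase, read 78.8 in depleted, 674 in tumour and 56.9 in wild type lung, and Atp12a, a proton and potassium pump, read 20.8, 463 and 19.1. Scnn1g, a subunit of the epithelial sodium channel, read 2348, 1254 and 3334. Car12 and Atp12a were bright on the tumour array alone of the 3, while Slc26a4 was bright on both mutant arrays.

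Slc4a5, a sodium and bicarbonate cotransporter, read 371 in depleted, 177 in tumour and 783 in wild type lung. The scaffold gene Slc9a3r2 (NHERF2) read 5251, 902 and 3331, 5.82-fold higher in depleted than in tumour lung, where the authors' deposited table has 3.51-fold. Its 6 probe sets ranged from 1.24 to 2.63 on the log2 scale for that difference and from -2.32 to -1.58 for tumour against wild type lung. Slc9a3r1 (NHERF1), its epithelial relative, went the other way between tumour and wild type lung, with 5338 in depleted, 7199 in tumour and 2463 in wild type lung. Its 2.17-fold higher value in depleted than in wild type lung became a log2 difference of -0.16 with equal control medians. Slc8a3, a sodium and calcium exchanger, was below the level filter in every comparison, at 5.05, 45.3 and 27.9.

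Among metal carriers, 5 of 6 were at least 2-fold higher in tumour than in wild type lung and none was lower. The shares of named genes were 37.6% and 38.2%. With equal control medians those 5 were still above wild type, 1 of them (Slc11a1) by at least 2-fold, as were 15.3% of named genes. Slc11a1 (NRAMP1), which pumps iron and manganese out of phagosomes, read 1682 in depleted, 2209 in tumour and 468 in wild type lung. Slc39a14 (ZIP14), which takes up zinc and iron, read 816, 1213 and 416. Its second probe set read a higher difference, 4.52 against 1.54 on the log2 scale for tumour over wild type lung. The wild type intensity of that probe set was below the array's 25th percentile (34.8) and was not raised for the 4.52. The size of that difference is therefore uncertain. Slc39a2 (ZIP2), a zinc importer, read 770, 417 and 145, with its own highest value in depleted lung.

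Slc40a1 encodes ferroportin, the only known exporter of cellular iron in mammals, and is strongly expressed by macrophages that recycle iron. It read 1879 in depleted, 630 in tumour and 432 in wild type lung, 2.98-fold higher in depleted than in tumour lung and 4.35-fold higher in depleted than in wild type lung. Its second probe set gave log2 differences of 1.04 for depleted against tumour lung and 0.88 for depleted against wild type lung, below 2-fold. With equal control medians the 2 probe sets gave 0.85 and -0.39 for depleted against wild type lung. For tumour against wild type lung they gave 0.54 and -0.16 on the deposited scale, and -0.57 and -1.27 with equal control medians. Macrophage genes did not share 1 order. Cd68, a lysosomal protein of macrophages, read 5553 in depleted, 14106 in tumour and 1645 in wild type lung. Depleted lung was at least 2-fold below tumour lung for 6 of 8 macrophage genes and above it for none by that margin. Of named genes 27.5% were lower and 29.5% higher. Cd14, another of the 8, read 5345 in depleted, 4565 in tumour and 897 in wild type lung. On the deposited scale this was the order of the brighter Slc40a1 probe set only. Of 8 alveolar macrophage genes 4 were named. Of these, 3 were at least 2-fold higher in depleted than in tumour lung and 1 was lower.

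Slc39a11 (ZIP11), a zinc carrier, read 773 in depleted, 1924 in tumour and 774 in wild type lung. Slc41a2, a magnesium carrier, read 469, 933 and 342. Both were brightest in tumour lung. Of 14 further genes of iron and metal handling 8 were named, and 6 were at least 2-fold higher in tumour than in wild type lung and 1 lower. With equal control medians 2 were higher and 2 lower. Of all named genes 37.6% were higher and 38.2% lower, and 15.3% and 52.5% with equal control medians. Tfrc, the receptor for transferrin-bound iron, read 2470, 5827 and 2559 in depleted, tumour and wild type lung, and Mt2, a metallothionein, read 5805, 8069 and 1593. Hamp encodes hepcidin, which removes ferroportin from the cell surface. It was lowest in tumour lung, at 222, 82.2 and 1156.

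Among carriers of organic ions, 2 of 5 were at least 2-fold higher and 3 lower in tumour than in wild type lung. Of named genes 37.6% were higher and 38.2% lower. With equal control medians none of the 5 was higher and 3 were lower, against 15.3% and 52.5% of named genes. Slco2a1, the prostaglandin carrier of endothelium, read 7322 in depleted, 3219 in tumour and 6776 in wild type lung. Slco3a1, which also carries prostaglandins, read 2000, 775 and 2415. Depleted lung was within 2-fold of wild type for both and at least 2-fold above tumour lung. The second probe set of Slco3a1 read 921 in depleted and 679 in tumour lung, a log2 difference of 0.44, below 2-fold. All 5 members of the group were, with equal control medians, at least 2-fold lower in depleted than in wild type lung, as were 60.2% of named genes. Slco2a1 was at -1.16 and Slco3a1 at -1.55. Slco4a1, a carrier of thyroid hormone and other organic anions, read 130 in depleted, 426 in tumour and 133 in wild type lung. Slco4c1, known from the kidney tubule, read 1430, 2818 and 1304; its log2 difference of 1.11 between tumour and wild type lung became -2.2e-03 with equal control medians. Slc47a1 (MATE1), an exporter of organic cations, read 28.6, 4.87 and 232. It was at least 6.63-fold lower in depleted and at least 6.53-fold lower in tumour than in wild type lung; in the authors' deposited table these are 3.71-fold and 4.94-fold.

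Of 6 carriers of vitamins, nucleosides, choline and fatty acids, 3 were brightest in tumour lung and at least 2-fold lower in depleted lung. Tumour lung was highest by at least 2-fold for 19.4% of named genes, and 27.5% were lower in depleted than in tumour lung. With equal control medians 1 carrier was at least 2-fold higher and 3 lower in tumour than in wild type lung, against 15.3% and 52.5% of named genes. Slc28a3, the nucleoside carrier CNT3, read 52.6 in depleted, 303 in tumour and 38 in wild type lung. It was 5.76-fold lower in depleted than in tumour lung and 7.98-fold higher in tumour than in wild type lung; in the authors' deposited table these are 2.72-fold and 3.11-fold. Slc29a3, the lysosomal nucleoside carrier ENT3, read 692, 1410 and 523. Slc27a1, a fatty acid transport protein, read 475, 1077 and 434, and its 2 probe sets differed by at most 0.09 on the log2 scale in any comparison.

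The other 3 were brightest in wild type lung. Slc23a2 (SVCT2), the vitamin C carrier of most tissues, read 767 in depleted, 1053 in tumour and 2119 in wild type lung. Slc44a2, a choline carrier-like protein, read 2140, 2053 and 3913, and Slc27a3 read 61.8, 35.4 and 134. Slc25a4, which exchanges ADP and ATP across the inner mitochondrial membrane in heart and muscle, read 6225, 5887 and 8972 and was within 2-fold in every comparison. In the authors' deposited table it is 2.05-fold lower in tumour than in wild type lung. Its log2 differences from wild type were -1.80 in depleted and -1.72 in tumour lung with equal control medians. Cardiac and skeletal muscle genes were far brighter in wild type lung, and their part in the value of Slc25a4 was not tested.

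Slc37a2, an exchanger of sugar phosphates in the endoplasmic reticulum that macrophages express, read 236 in depleted, 1160 in tumour and 114 in wild type lung. It was 4.93-fold lower in depleted than in tumour lung and 10.1-fold higher in tumour than in wild type lung. Its 2.06-fold higher value in depleted than in wild type lung became a log2 difference of -0.23 with equal control medians. The macrophage gene Gpnmb, with 4131, 21879 and 438 in depleted, tumour and wild type lung, had the same order.

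**Figure D3:**
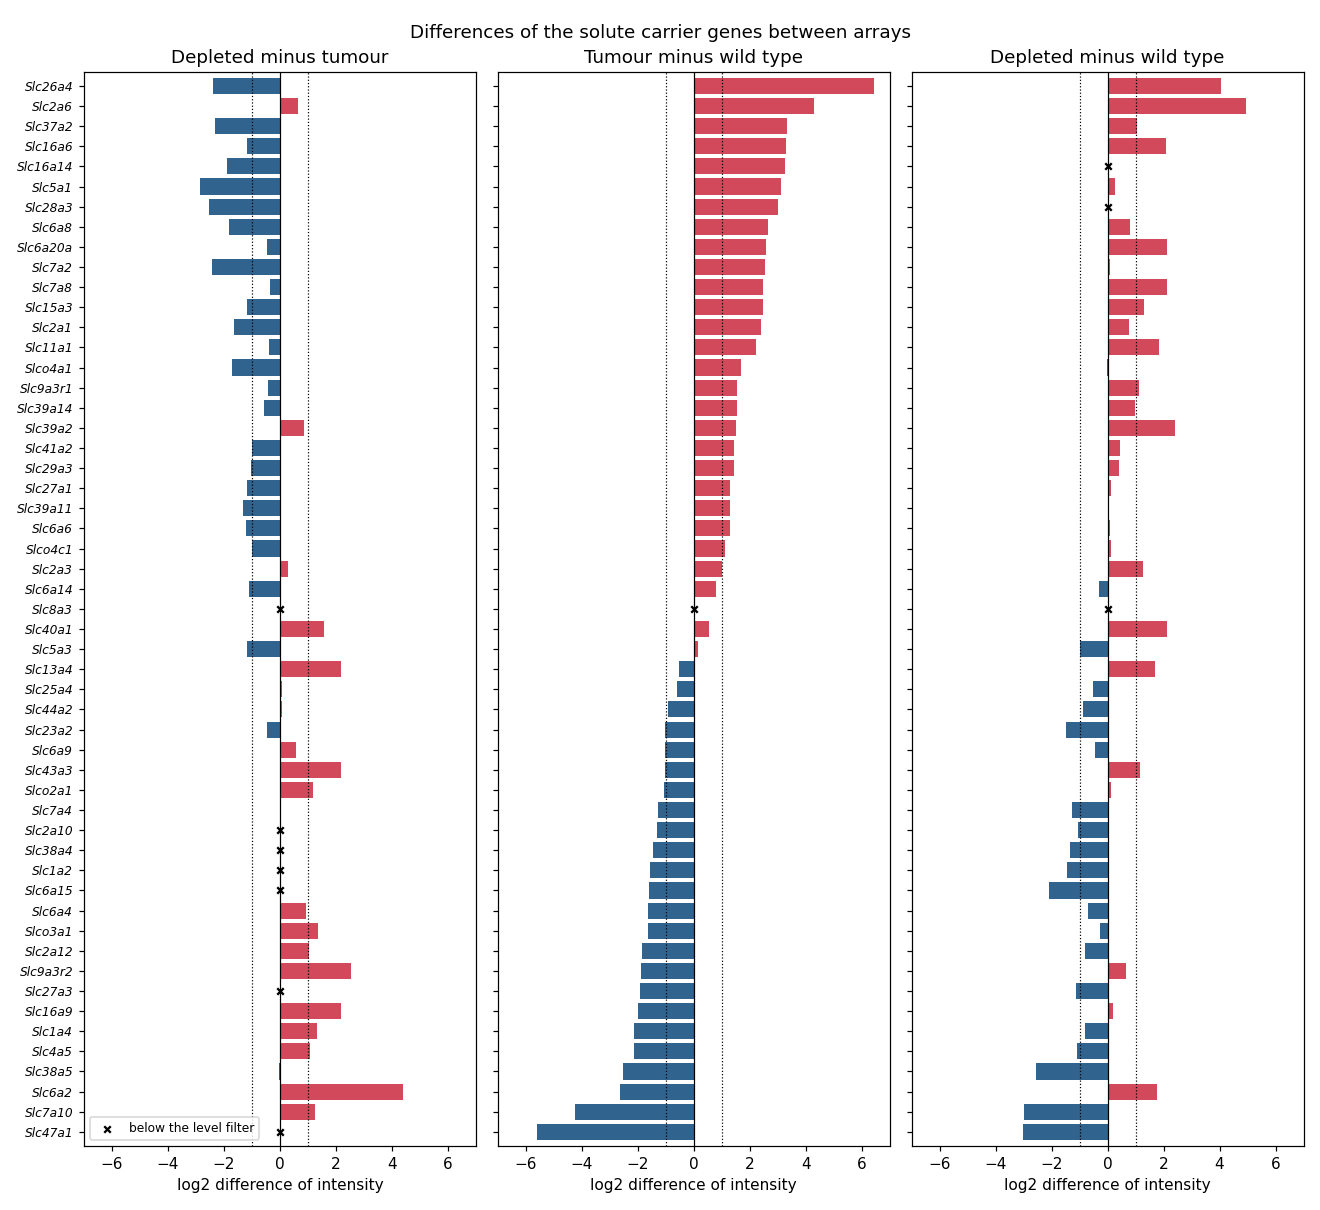
log2 differences of intensity for the 53 genes in the 3 comparisons (bars), sorted by tumour minus wild type; dotted lines mark 2-fold and crosses mark genes below the level filter. The longest bar of depleted minus tumour is Slc6a2 at 4.39, and that of tumour minus wild type is Slc26a4 at 6.45.

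Of the 53 members, 14 had more than 1 listed probe set. All probe sets of a gene went the same way in 14 of 14 genes for depleted against tumour lung, in 13 of 14 for tumour against wild type lung and in 11 of 14 for depleted against wild type lung. The median range between probe sets of a gene was 0.480, 0.450 and 0.460 on the log2 scale in those comparisons. Where the gene's value was at least 2-fold apart, all its probe sets went in 1 direction. The widest range was 2.98, for Slc39a14 in tumour against wild type lung. For the 39 members with a single listed probe set no such check exists.

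**Figure D4:**
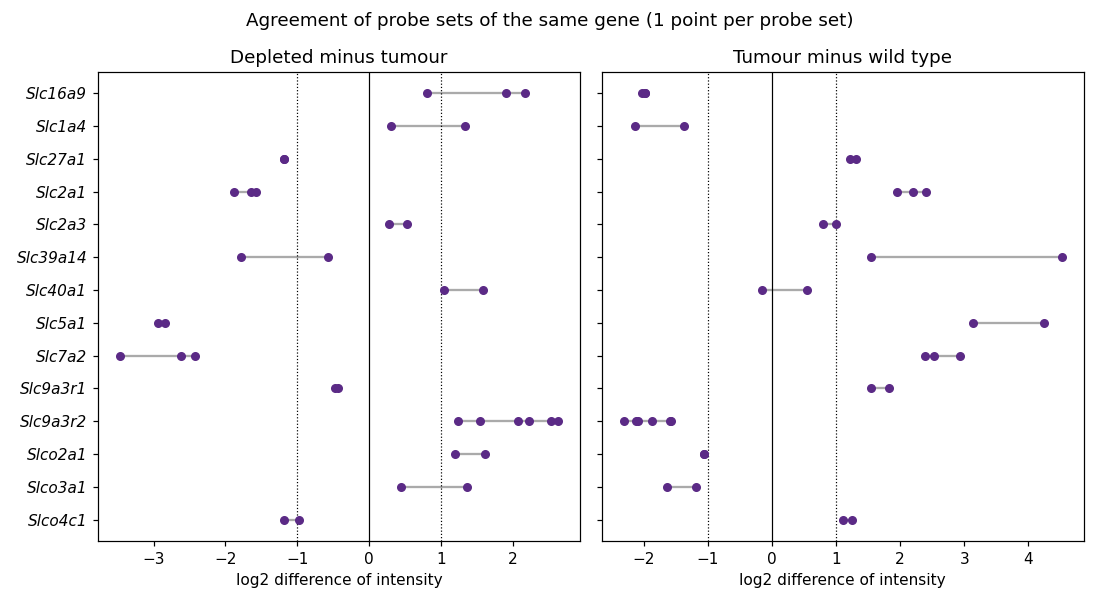
log2 differences of depleted minus tumour (left) and tumour minus wild type (right) for each listed probe set of the 14 genes with several; points of a gene are joined, and dotted lines mark 2-fold. Probe sets of Slc27a1 nearly coincide, and those of Slc39a14 lie 2.98 apart in the right panel.

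The deposited ratios and the intensities mostly gave similar sizes. Among members at least 2-fold apart, folds from the intensities exceeded those in the authors' deposited table by more than 1.5 times for 4 of 29 in depleted against tumour lung, 5 of 46 in tumour against wild type lung and 5 of 27 in depleted against wild type lung. At the threshold of the selection, Slc2a10 was just inside the table of tumour and wild type lung, 2.018-fold apart in the authors' deposited table. Slc2a3 was just outside it, 1.921-fold apart in the authors' deposited table, and was named through another comparison.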

How the data were processed

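Biotin-labelled lung RNA was hybridised to Affymetrix arrays, per the labels' protocols. The authors deposited a table of linear intensity per probe set, whose summarisation and scaling are not given in the sources used here (the submitters' processing notes name Partek), and 3 tables that hold each pair's ratio, per the file headers. Intensities were used as log2 with no further scaling. Symbols were updated through RefSeq GRCm38.p6 (3661 probe sets by accession, 66 by symbol, 42 by synonym, 89 kept). The main steps are given with the results. With 1 array per group no test was possible, and precision is limited by having 3 arrays in all. The rule for named genes allowed every member to be named, and all 53 are given with their intensities. Members, lists and rules were chosen with earlier results of these data known. Alternatives were another value per gene, probe sets without shared sequence, quantile normalization, scaling to hybridization controls, level filters, thresholds of 1.5-fold and 3-fold, and the deposited ratios. The comparison step was tested on simulated data whose genes lay above the level filter before large changes were added. That test says little of dim genes or of differences near the threshold. Python 3.11.15, numpy 2.4.6, pandas 2.3.3 and matplotlib 3.10.9 were used.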

Additional observations from a re-analysis of the deposited data

How the results depend on the processing

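No paired analysis was possible because each group has 1 array. For depleted against tumour lung, the counts of 12 higher and 17 lower members were 5 and 9 at 3-fold and otherwise stayed within 1.5 times. For tumour against wild type lung, 25 higher members became 14 with equal control medians, 14 with the median control difference removed (chosen after seeing the data) and 15 at 3-fold; 21 lower members became 12 with the level filter at the 75th percentile and 13 at 3-fold. The median of 0.67 became -0.44 and -0.33 under the control scalings. For depleted against wild type lung, 15 higher members became 3 under either control scaling; 12 lower members became 28 and 27 under them, 5 at the 75th percentile and 4 at 3-fold. The median of 0.12 became -1.16 and -1.07. Each scaling shifts all probe sets of an array alike, by 1.27 for depleted and 1.11 for tumour against wild type lung with equal medians. Called members that turned sign under them were, with equal control medians, Slc2a3 (-0.11) and Slco4c1 (-2.2e-03) in tumour against wild type lung; and in depleted against wild type lung, with equal medians and then the median difference removed, Slc37a2 (-0.23 and -0.14), Slc43a3 (-0.11 and -0.02) and Slc9a3r1 (-0.16 and -0.07). Quantile normalization, the median over probe sets and leaving out Slc9a3r1 and Slc9a3r2 (chosen after seeing the data) left all counts within 1.5 times. Dim members, such as Slc16a14, Slc28a3, Slc2a6 and Slc47a1, have the least certain folds.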

Other observations

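Transporters named in the deposited tables but outside the naming rule were looked up after seeing the data. Among 7 ATP-binding cassette (ABC) genes, depleted lung was at least 2-fold above tumour lung for 3 and below it for 2. Tumour lung was at least 2-fold above wild type lung for 1 and below it for 4. Shares of named genes were 29.5% and 27.5% in the first comparison, and 37.6% and 38.2% in the second. Abcb1a, a drug exporter of endothelium, read 696 in depleted, 144 in tumour and 506 in wild type lung. Abca1, the cholesterol exporter, read 8679, 11894 and 3341. Abcc9, a subunit of potassium channels in muscle and pericytes, read 417, 1217 and 1214 and was lowest in depleted lung.

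All 3 named Mfsd genes were at least 2-fold lower in depleted than in tumour lung and at least 2-fold higher in tumour than in wild type lung. Of all named genes 27.5% and 37.6% were. Mfsd12, a lysosomal cysteine carrier, read 437 in depleted, 1626 in tumour and 402 in wild type lung. Mfsd2a, a carrier of lysophosphatidylcholine, read 210, 680 and 208. Ucp2, a mitochondrial carrier, read 289, 330 and 745. Comparisons with wild type lung depend on the scale of that array, as for the solute carriers.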
